A study of Mus musculus with 6 samples.

Results

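Pre-mRNA splicing is carried out by the spliceosome, and the choice among splice sites is set in large part by RNA-binding proteins that bring it to an exon or keep it away. The 110 genes described here are the mouse genes whose symbols begin with Srsf, Hnrnp, Sf3a, Sf3b, Snrp, U2af, Rbm or Celf, together with Esrp1 and Esrp2, of 25528 genes in the count tables. Symbols ending in -ps, which mark pseudogenes, were left out. The list was defined by name and not by measured values, although earlier results of these data were known.

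The libraries came from murine gastric corpus organoids, which are epithelial cultures grown in 3 dimensions. In 3 libraries, named Ctrl_Corpus, the organoids had been transduced with an empty vector, and in the 3 named Erbb2_OE_Corpus they overexpressed Erbb2, a receptor tyrosine kinase. Both groups carry the replicate numbers 1 to 3. The strain, the age of the donor animals, the promoter that drives Erbb2 and whether libraries came from separate cultures are not stated in the labels, so p-values measure only the spread between these libraries, which may be technical.

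The families differ in how they act. SR proteins (Srsf) bind exonic enhancers and recruit the spliceosome, whereas heterogeneous nuclear ribonucleoproteins (hnRNPs) coat nascent transcripts and often act as silencers, export factors or regulators of mRNA turnover. The Sf3a, Sf3b and U2af proteins recognise the branch point and the end of the intron, and the Snrp genes encode Sm core and snRNP-specific proteins. Rbm genes form a mixed group of RNA-recognition-motif proteins, Celf proteins bind GU-rich RNA, and Esrp1 and Esrp2 direct the epithelial splicing programme.

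Total counts lay between 18735853 and 22767455 per library. Erbb2 (ENSMUSG00000062312) was measured at 125, 164 and 128 CPM (counts per 1000000 after scaling by library size) in Ctrl_Corpus replicates 1 to 3 and at 342, 349 and 285 CPM in the Erbb2_OE_Corpus libraries. The groups did not overlap. Its log2 fold change was 1.23, with a p-value adjusted over all genes tested of 0.640 in edgeR's quasi-likelihood test on the group alone, and of 3.55e-05 when the replicate number was added as a block. The 9 markers of gastric epithelium, which all passed the filter, summed to between 6975 and 8700 CPM. Cdh1 (1937 to 2279 CPM) and Krt19 (1869 to 2501 CPM) were the largest, whereas Gkn1 lay between 0.0463 and 4.83 CPM. Markers of fibroblasts summed to between 0.695 and 1.70 CPM, with 3 of 6 at 0 in every library. Immune markers summed to between 18.6 and 73.4 CPM, mostly from Cd68. Endothelial markers summed to between 0.0566 and 9.28 CPM, and Tek alone gave 8.95 CPM of the highest sum, in Erbb2_OE_Corpus replicate 3. In bulk RNA, fewer cells of a type and less RNA per cell cannot be told apart.

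Of the 110 genes, 100 passed the filter on low counts, namely 10 of 11 Srsf, 20 of 20 Hnrnp, 12 of 12 Sf3 and U2af, 12 of 12 Snrp, 40 of 47 Rbm, 4 of 6 Celf and 2 of 2 Esrp genes. No member passed an adjusted p of 0.05 when the group was the only term (edgeR), and 0% of the 12593 genes tested passed. Without adjustment, 1 member was higher and 7 were lower at p under 0.05, against 2.17% and 1.16% of all genes. When the replicate number was added as a block, 1 member was called higher, against 2.37% of all genes, and 2 members lower, against 0.723%. Celf4 was the member called higher in that fit, and Hnrnpd and Hnrnpa2b1 were those called lower.

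The members lay mostly on the lower side in Erbb2_OE_Corpus. With the block, 80 of the 100 had a fitted log2 fold change below 0, as had 51.6% of all genes, and the median was -0.11 for the members and -0.01 for all genes. The groups did not overlap for 12 members that were lower and 1 that was higher, against 4.48% and 4.27% of all genes. Within replicate numbers, 42 members were lower in all 3 pairs and 6 were higher in all 3, against 19.2% and 19.6% of all genes. These counts describe the list and are no test of it.

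**Figure D1:**
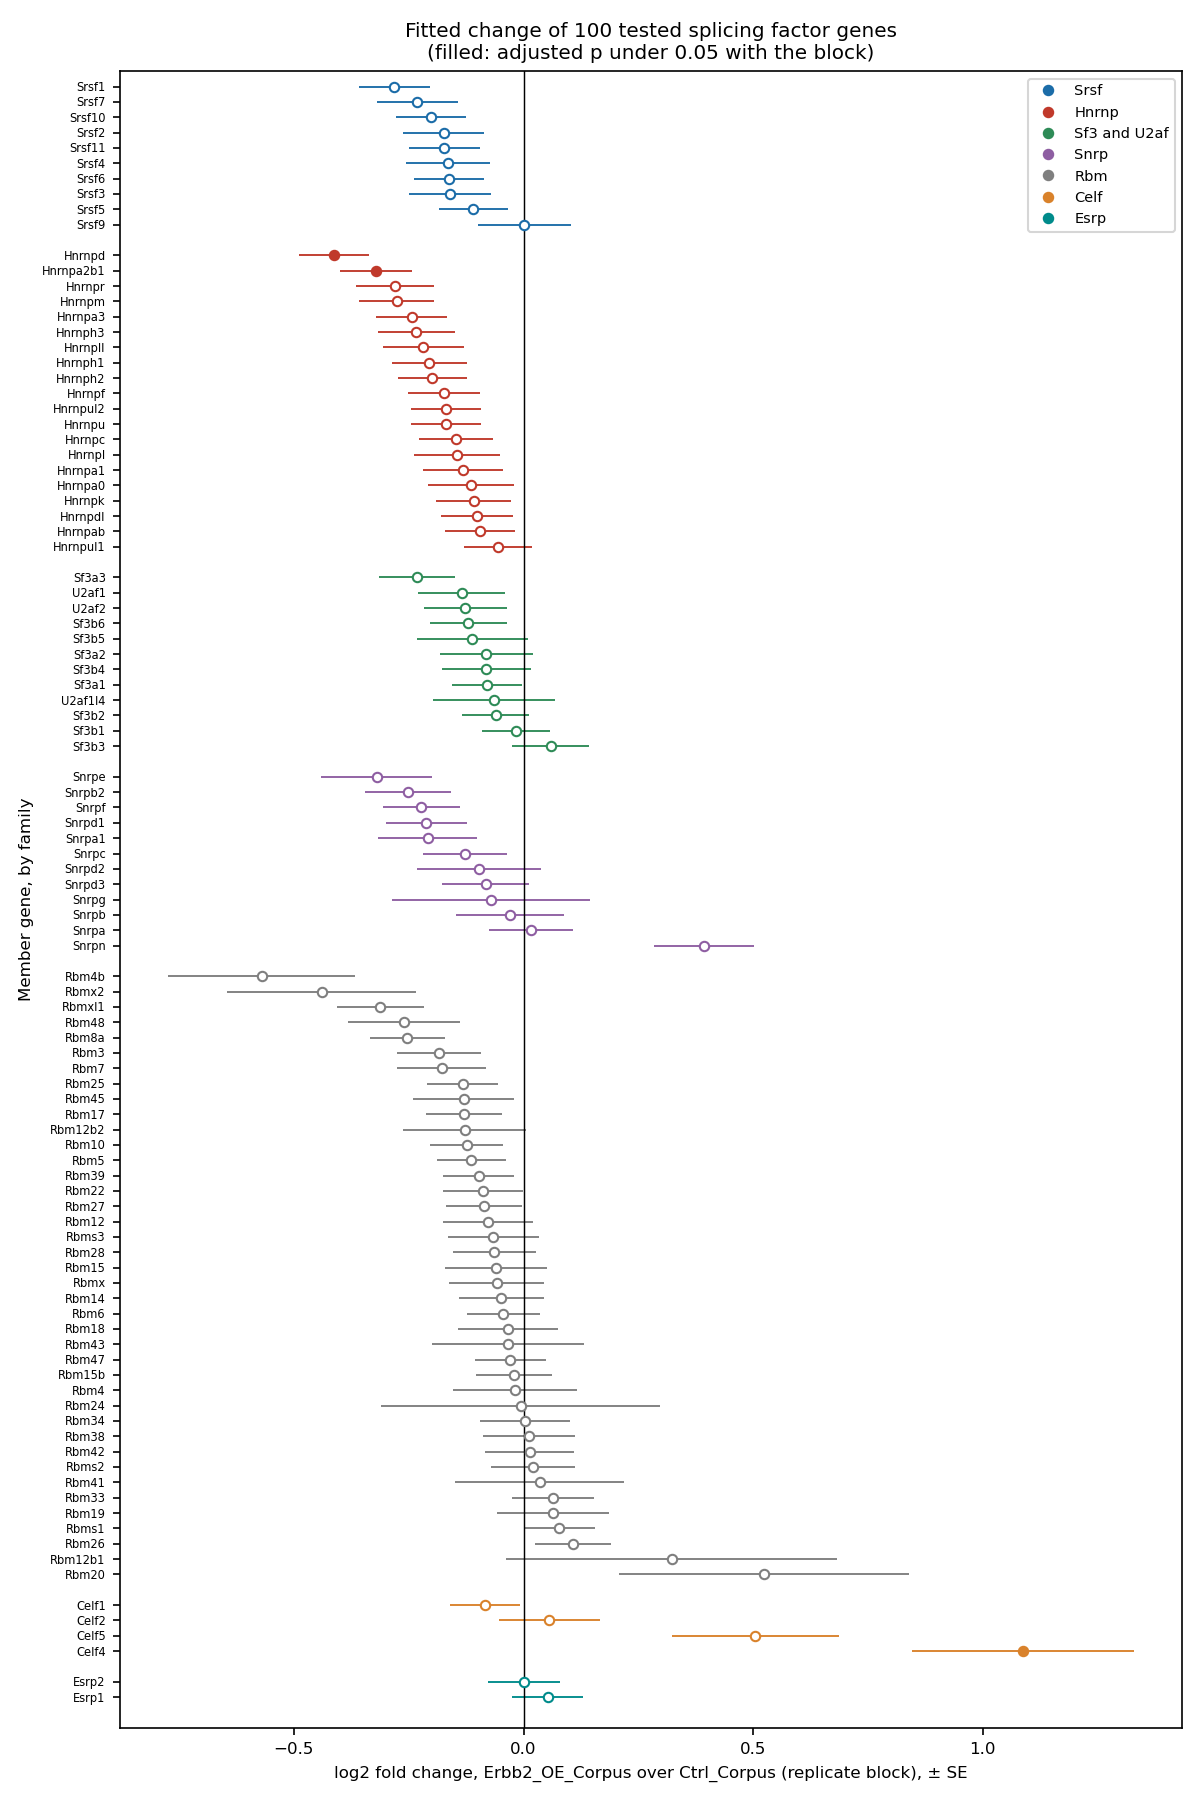
Fitted log2 fold change (x axis, Erbb2_OE_Corpus over Ctrl_Corpus, replicate block) of the 100 tested members by family, with SE as bars and filled points for an adjusted p under 0.05. All 20 Hnrnp points lie left of 0, and Celf4 lies farthest right at 1.09.

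The promoters of Hnrnpd and Hnrnpa2b1 are printed because these are the members called lower in edgeR with the block. Each is the stretch of 250 bases before the RefSeq start in GRCm38.p6, given in the direction of transcription. Hnrnpd lies at chr5:99978939-99979188 and Hnrnpa2b1 at chr6:51469895-51470144, both on the minus strand. Capitals mark matches on either strand to letters known from common promoter elements. The ETS letters searched were CCGGAAG, those of the E-box were CACGTG, those of the GC box GGGCGG, and those of the TATA element TATAAA.
Hnrnpd: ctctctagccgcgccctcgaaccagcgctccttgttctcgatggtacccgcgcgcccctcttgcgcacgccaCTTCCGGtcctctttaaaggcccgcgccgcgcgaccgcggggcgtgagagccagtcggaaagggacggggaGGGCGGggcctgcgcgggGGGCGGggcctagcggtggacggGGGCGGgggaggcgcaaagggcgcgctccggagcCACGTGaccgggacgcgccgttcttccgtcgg
Hnrnpa2b1: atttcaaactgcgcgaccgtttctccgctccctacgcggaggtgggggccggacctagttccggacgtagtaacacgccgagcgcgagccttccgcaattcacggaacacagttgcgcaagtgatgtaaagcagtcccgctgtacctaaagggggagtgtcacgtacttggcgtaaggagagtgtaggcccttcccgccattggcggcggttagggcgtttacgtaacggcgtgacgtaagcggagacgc
The Hnrnpd promoter held 74.4% G and C and 39 CpG, with an ETS match 178 bases before the start, an E-box match at 32, and GC box matches at 107, 89 and 66. The Hnrnpa2b1 promoter held 59.6% G and C and 29 CpG and matched none of these letters.

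Over windows of 300 bases, which run past the start, 91 member genes matched the RefSeq table, with 133 windows. ETS letters were present in 20.3% of the member windows and in 8.86% of all 32851 windows. GC box letters were present in 56.4% and 35.7%, E-box letters in 9.02% and 7.15%, and TATA letters in 14.3% and 13.6%. The 27 windows of 18 Hnrnp genes held them in 14.8%, 77.8%, 18.5% and 7.41%, in the same order. The median share of G and C was 60.33% in member windows, 66.33% in Hnrnp windows and 52.67% in all windows, and the motifs are rich in these bases apart from TATA. All windows cover 27025 genes, expressed here or not, whereas 100 of the 110 members passed the filter on low counts. Shares over expressed genes alone were not taken. A match is a description of letters and not a binding site.

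Among the families, the hnRNP genes held the highest median level per length, and all 20 had fitted values below 0. Per kilobase of merged exon, Hnrnpab led with a mean of 215 CPM over 6 libraries, followed by Hnrnpa1 with 193 CPM. The family's median was 62.0 CPM per kilobase, and Hnrnpll, a regulator of exon skipping known from lymphocytes, was lowest with 4.19. Merged exon takes in the exons of all transcripts of a gene, so these ranks depend on the length used. It was 6.584 kb for Hnrnpa2b1 and 11.68 kb for Hnrnpll, whose longest coding transcripts have 1728 and 3116 bases. Near-identical sequence in other genes covers at least 30% of a transcript for 29 of the 110 members, whose counts are uncertain for that reason. Among the genes named below these are Hnrnpa1, Hnrnpab, Hnrnpf, Srsf2, Srsf4, Srsf5, U2af1, Snrpd1, Snrpe, Snrpf, Snrpn, Rbm4b, Rbmxl1, Rbm8a2, Rbm31y and Rbmy. Hnrnpd, Hnrnpa2b1, Celf4 and Srsf1 are not among the 29.

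**Figure D2:**
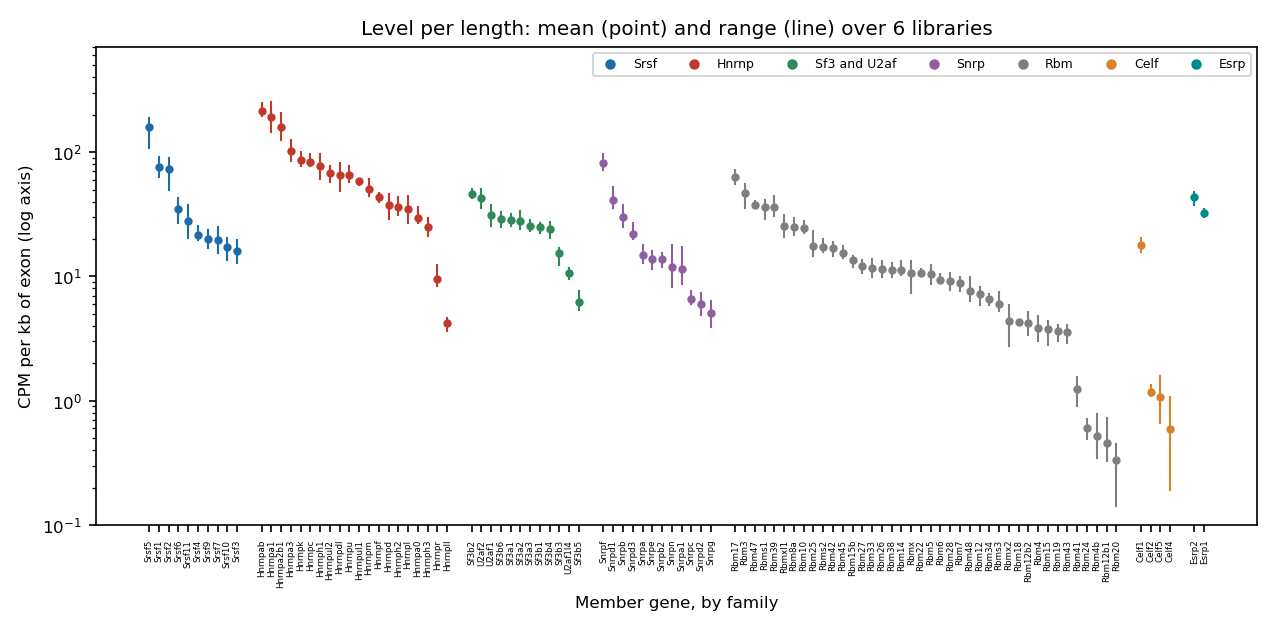
Mean CPM per kilobase of merged exon (log axis) of each tested member by family, with lines from the lowest to the highest of 6 libraries. Hnrnpab, Hnrnpa1, Srsf5 and Hnrnpa2b1 lie highest, at 215, 193, 160 and 159, and Rbm20 lowest at 0.333.

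Hnrnpd (ENSMUSG00000000568) encodes AUF1, which binds AU-rich elements and promotes mRNA decay. It was measured at 315, 288 and 337 CPM in Ctrl_Corpus replicates 1 to 3 and at 256, 214 and 237 CPM in Erbb2_OE_Corpus. Every Erbb2_OE_Corpus library lay below every control library. The means were 313 ± 24.6 and 235 ± 21.1 CPM (SD, n = 3 each), and the fitted level was 24.9% lower (log2 fold change -0.41, SE 0.08, adjusted p = 0.0131 in edgeR with the block and 0.9997 without it). Leaving out pairs 1, 2 and 3 in turn gave adjusted p-values for Hnrnpd of 0.0227, 0.163 and 0.00195. The same fits called 213, 145 and 1089 genes in all.

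Hnrnpa2b1 (ENSMUSG00000004980), an abundant hnRNP that packages transcripts and takes part in RNA sorting, was measured at 1222, 933 and 1351 CPM in Ctrl_Corpus and at 908, 820.1 and 1060.4 CPM in Erbb2_OE_Corpus. It was lower within each pair, but the groups overlapped, since control replicate 2 lay below Erbb2_OE_Corpus replicate 3. The fitted log2 fold change was -0.32 (SE 0.08, adjusted p = 0.0482 in edgeR with the block and 0.9997 without it). The call sits at the threshold, with adjusted p-values of 0.259, 0.189 and 0.0143 when pairs 1, 2 and 3 were left out in turn. Of these fits, the one without pair 3 called the most genes in all (1089). With all pairs and the block, the adjusted p of Hnrnpa2b1 was 0.0552 under DESeq2's size factors and 0.0537 with no filter. It was 0.00972 with DESeq2, 0.0311 with voom and 0.0446 with the earlier quasi-likelihood form.

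The other 18 Hnrnp genes did not pass, although their fitted values were below 0 as well. In pairs 1 and 3 all 20 were lower, and in pair 2 it was 14 of 20. Unadjusted p-values with the block were under 0.05 for 12 of 20, all lower. Over all members, 24 were lower and 3 higher by this measure, against 7.21% and 9.64% of all genes. Hnrnpm, whose protein binds GU-rich RNA and promotes exon skipping, was measured at 437, 394 and 487 CPM in Ctrl_Corpus and 350.3, 366 and 369 CPM in Erbb2_OE_Corpus. No Erbb2_OE_Corpus library reached the lowest control, and the fitted difference was -0.28 on the log2 scale (SE 0.08, adjusted p = 0.0965 in edgeR with the block). Hnrnpr, a pre-mRNA-binding hnRNP, gave 275, 212 and 206 CPM against 196, 185 and 186 CPM, also with no overlap, and its adjusted p was 0.108. Hnrnpf and Hnrnpll were the remaining Hnrnp genes lower with no overlap, and Hnrnpul1 lay nearest to 0 at -0.06.

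Neither of the hnRNP genes ranked highest per kilobase of merged exon passed the test. Hnrnpa2b1, which was called with the block, had more CPM than either in every library. Hnrnpab was measured at 630.5, 541 and 685 CPM in Ctrl_Corpus and at 588, 545 and 598 CPM in Erbb2_OE_Corpus, and Hnrnpa1, a splicing silencer protein, at 672, 458 and 795 CPM against 588, 489 and 648 CPM. In both genes control replicate 2 was the lowest of the 6 libraries and control replicate 3 the highest, so that the groups overlapped. Their log2 fold changes were -0.10 and -0.13, with adjusted p-values of 0.587 and 0.486 (edgeR with the block). Hnrnpa3, a relative of Hnrnpa2b1 named after its values were seen, was measured at 616, 498 and 676 CPM against 479, 459 and 568 CPM. It was lower in each pair, with overlapping groups and an adjusted p of 0.129.

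**Figure D3:**
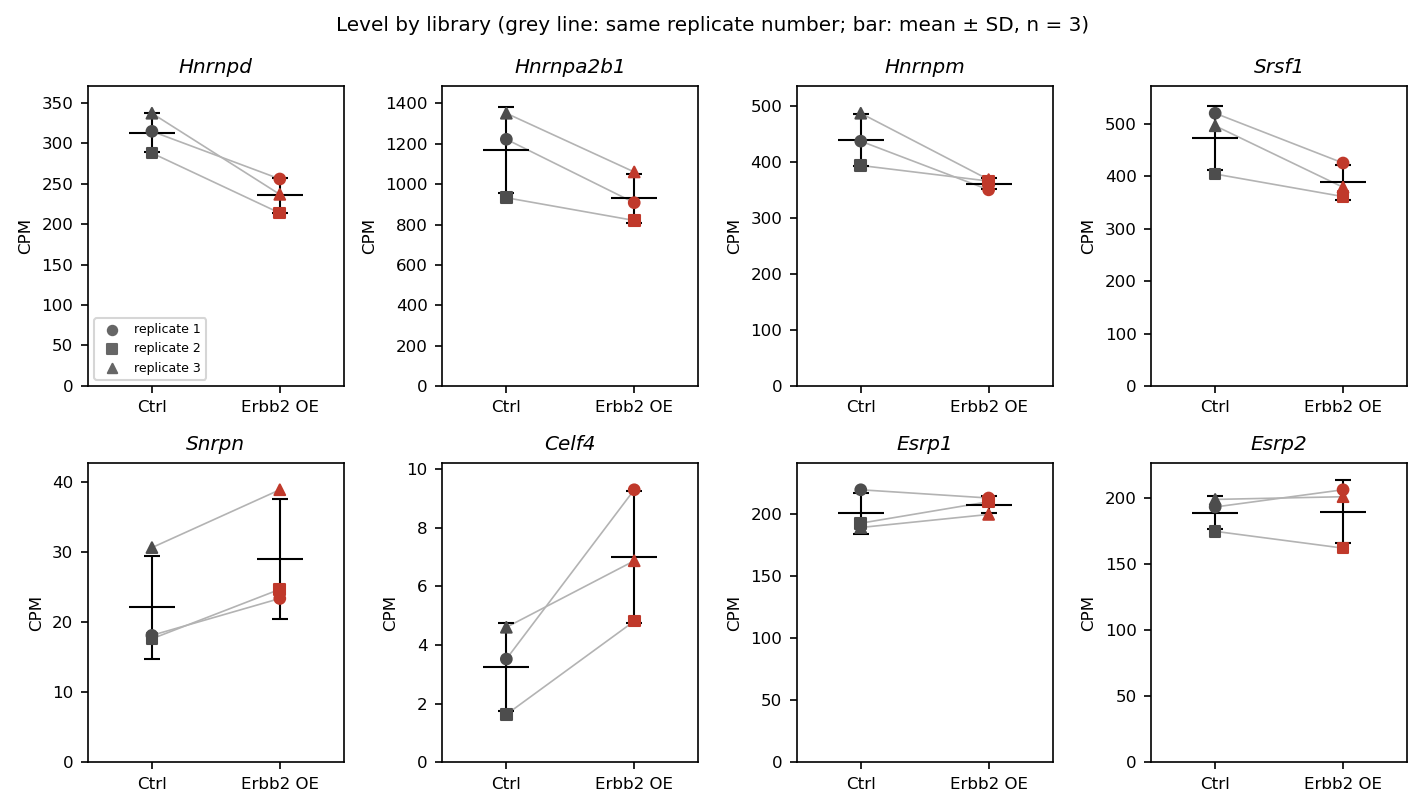
CPM of 8 members in each library, with lines joining libraries of the same replicate number and bars for mean and SD (n = 3 each). Hnrnpd and Hnrnpm are lower without overlap, Celf4 is higher without overlap, and Esrp1 and Esrp2 overlap.

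The summed level of the Hnrnp genes was 8906, 7149 and 9040 CPM in Ctrl_Corpus and 7431, 6834 and 7612 CPM in Erbb2_OE_Corpus. Both groups were lowest in replicate 2, and the sum was lower within each number. All members together took 1.76%, 1.35% and 1.82% of the counts in Ctrl_Corpus and 1.56%, 1.28% and 1.61% in Erbb2_OE_Corpus. Beside these, the mitochondrial share was 8.14%, 10.6% and 8.05% in Ctrl_Corpus and 8.01%, 11.1% and 6.33% in Erbb2_OE_Corpus. The 6 proliferation markers summed to 538, 368 and 952 CPM against 494, 438 and 566 CPM, with 0 of 6 called. The part of either in the members' differences was not tested.

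No SR protein gene passed the test in either fit (edgeR). With the block 4 of 10 were lower at an unadjusted p under 0.05, against 7.21% of all genes. The family's median fitted value with the block was -0.17. Of the 10 tested genes, 9 were below 0 and 7 were lower in all pairs, against 51.6% and 19.2% of all genes. Srsf1, the founding SR protein, was measured at 521, 405 and 497 CPM in Ctrl_Corpus and at 426, 361 and 379 CPM in Erbb2_OE_Corpus. It was lower in each pair, but the groups overlapped. Its fitted difference of -0.28 on the log2 scale had an SE of 0.08 and an adjusted p of 0.0768 (edgeR, block). With DESeq2 and the block its adjusted p was 0.0428. Srsf7, Srsf10 and Srsf11 had log2 fold changes of -0.23, -0.20 and -0.17, with adjusted p-values of 0.203, 0.205 and 0.281. Srsf4 alone of the family was lower with no overlap.

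Replicate number took a larger share of the variation than group for 8 of 10 Srsf genes. Srsf1 and Srsf4 were the exceptions, with 41.0% and 13.8% for replicate number and 53.2% and 46.2% for group. The same held for 14 of 20 Hnrnp, 11 of 12 Sf3 and U2af, 8 of 12 Snrp and 34 of 40 Rbm genes. It also held for 3 of 4 Celf and 2 of 2 Esrp genes. With 3 replicate numbers and 2 groups, the replicate share is larger on average even where neither has an effect. Srsf5, the SR gene with the highest level per length at 160 CPM per kilobase, was measured at 730, 501 and 745 CPM in Ctrl_Corpus and 683, 434 and 733 CPM in Erbb2_OE_Corpus. Both replicate 2 libraries lay far below the other 4. Replicate number took 95.2% of the sum of squares of log2 CPM for Srsf5 and group took 3.20%. Over the Srsf genes, the medians were 79.5% and 12.7%, against 64.5% and 10.4% over all genes. Hnrnp genes stood at 55.9% and 35.1%, and Hnrnpd, which was named for its small p between the groups, at 15.4% and 81.0%. The group share was larger for Snrpb2 (91.0%), Snrpe (85.2%), Sf3a3 (84.2%) and Hnrnpll (81.9%), which were not called. Replicate 2 libraries were both below all others for 34 of the 100 members and 7 of 10 Srsf genes, against 15.4% of all genes, and replicate 2 had the highest mitochondrial share and the lowest totals in each group. The median log2 level in replicate 2 minus that in the other numbers was -0.35 for Srsf genes, -0.20 for Hnrnp genes and 0.00 for all genes.

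Low values in replicate 2 occurred in several families, and 3 examples with both replicate 2 libraries below the other 4 were chosen after their values were seen. Rbmx, a nuclear RNA-binding protein encoded on the X chromosome, was measured at 55.2, 31.9 and 55.6 CPM in Ctrl_Corpus and at 58.0, 33.8 and 44.8 CPM in Erbb2_OE_Corpus. Srsf2, an SR protein that stays in the nucleus, gave 256, 166 and 264 CPM against 263, 147 and 203 CPM, and Hnrnpdl, a paralog of Hnrnpd, gave 392.5, 239 and 356.5 CPM against 329.6, 236.5 and 347.5 CPM. In each, both replicate 2 libraries were the lowest and the groups overlapped. Replicate number took 92.4%, 87.0% and 93.3% of the sum of squares of Rbmx, Srsf2 and Hnrnpdl, and group took 0.560%, 6.64% and 3.14%. The part of depth and mitochondrial share in this pattern was not tested.

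**Figure D4:**
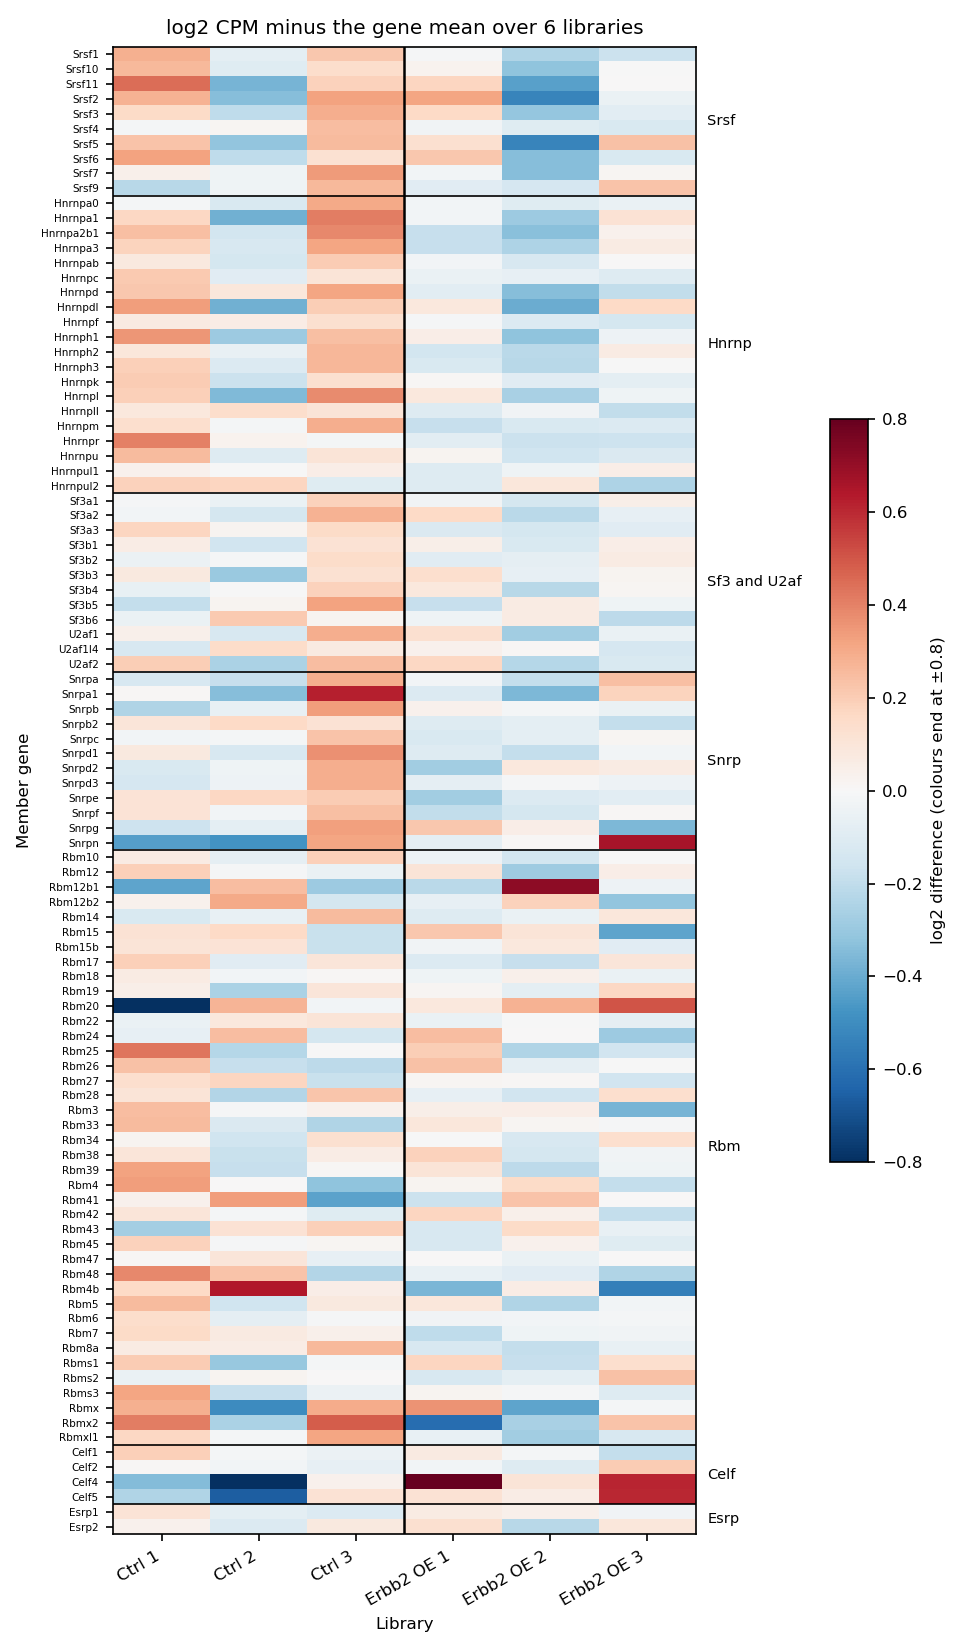
log2 CPM of each tested member in each library, minus the gene's mean over 6 libraries, with colours ending at a difference of 0.8. For 7 of 10 Srsf genes both replicate 2 libraries are the lowest, and the highest value of Celf4 and of Celf5 lies in an Erbb2_OE_Corpus library.

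None of the genes for branch point and splice site recognition was called in either fit (edgeR). With the block 1 of 12 (8.33%) was lower at an unadjusted p under 0.05, near the 7.21% of all genes. Fitted values were below 0 for 11 of 12 Sf3 and U2af genes, against 51.6% of all genes, with a median of -0.08. Sf3a3, a subunit of the SF3A complex of the U2 snRNP, was measured at 79.5, 71.7 and 78.7 CPM in Ctrl_Corpus and 65.2, 64.0 and 66.5 CPM in Erbb2_OE_Corpus. The groups did not overlap, and the adjusted p was 0.174 (log2 fold change -0.23, edgeR with the block). U2af1 and U2af2, which read the end of the intron, had values of -0.14 and -0.13. Sf3b6, which sits at the branch point, stood at -0.12, and Sf3b2, with the highest level per length of the group at 45.8 CPM per kilobase, at -0.06. In pair 1 the group's median log2 ratio was 0.01, and in pair 3 it was -0.22.

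Among the Snrp genes, the values of 10 of 12 were below 0, against 51.6% of all genes, and Snrpn stood on the other side. None was called in either fit (edgeR). With the block 4 were lower and 1 higher at an unadjusted p under 0.05, against 7.21% and 9.64% of all genes. Snrpn, an imprinted gene for a variant of the Sm protein B known from brain, was measured at 18.1, 17.6 and 30.6 CPM in Ctrl_Corpus and 23.4, 24.7 and 38.9 CPM in Erbb2_OE_Corpus. It was higher within each pair, with overlapping groups, a log2 fold change of 0.39 (SE 0.11) and an adjusted p of 0.0792 in edgeR with the block. Of its transcript, 31.9% is near-identical to other genes, so that its counts are uncertain. Snrpb2, a U2 snRNP protein, and Snrpe, an Sm core protein, were lower without overlap, at -0.25 and -0.32, with adjusted p-values of 0.191 and 0.199. Snrpf and Snrpd1, Sm core proteins with the highest levels per length of the family, stood at -0.22 and -0.21.

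The Rbm genes were the most mixed. Of 40 tested, none was called (edgeR), and 29 were below 0, against 51.6% of all genes. In all pairs 12 were lower and 3 higher, against 19.2% and 19.6% of all genes. At an unadjusted p under 0.05 with the block (edgeR), 3 (7.5%) were lower, near the 7.21% of all genes. Rbmxl1, a retrocopy of Rbmx, was measured at 47.5, 41.9 and 52.9 CPM in Ctrl_Corpus and 40.7, 35.0 and 38.8 CPM in Erbb2_OE_Corpus. All Erbb2_OE_Corpus libraries lay below all controls, at -0.31 on the log2 scale (SE 0.09, adjusted p = 0.110 in edgeR with the block), but 91.4% of its transcript is near-identical to other genes. Rbm8a, the exon junction complex protein Y14, was measured at 83.0, 82.6 and 94.9 CPM against 72.6, 69.6 and 76.1 CPM, with no overlap and an adjusted p of 0.131. Rbm7, which acts with the nuclear exosome, was the other Rbm gene lower without overlap. Rbm4b and Rbmx2 had log2 fold changes of -0.57 (SE 0.20) and -0.44 (SE 0.21). The most abundant per length were Rbm17, a spliceosome protein, and Rbm3, a cold-inducible protein, at 63.3 and 46.8 CPM per kilobase, with -0.13 and -0.18.

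**Figure D5:**
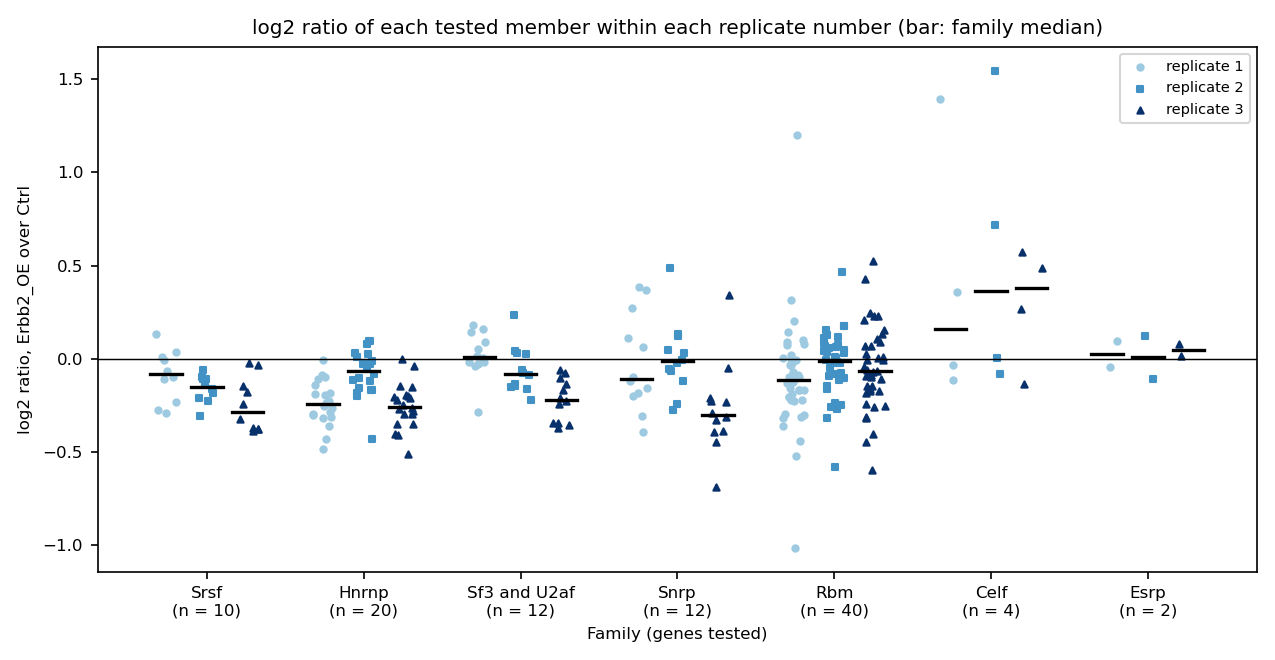
log2 ratio of Erbb2_OE_Corpus over Ctrl_Corpus for each tested member within each replicate number, with bars for family medians. The Hnrnp medians are -0.25, -0.07 and -0.26 in pairs 1 to 3, and the Sf3 and U2af medians 0.01, -0.08 and -0.22.

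Celf4 (ENSMUSG00000024268), a CELF protein known from neurons, was the one member called higher. It was measured at 3.52, 1.63 and 4.60 CPM in Ctrl_Corpus and 9.29, 4.81 and 6.87 CPM in Erbb2_OE_Corpus. The groups did not overlap, though the highest control and the lowest Erbb2_OE_Corpus library lay close together. The fitted level was 2.13-fold higher (log2 fold change 1.09, SE 0.24, adjusted p = 0.0306 in edgeR with the block and 0.9997 without it). Leaving out pairs 1, 2 and 3 in turn gave adjusted p-values of 0.216, 0.130 and 3.32e-05. These fits called 213, 145 and 1089 genes in all, so the last value comes from a fit that called many more genes. Celf4 was low, at 0.597 CPM per kilobase.

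Celf5, a close relative, was also higher in each pair but not called, at 5.89, 4.39 and 7.53 CPM against 7.55, 7.25 and 10.6 CPM (log2 fold change 0.51, SE 0.18, adjusted p = 0.178 in edgeR with the block). The broadly expressed Celf1 and Celf2 stood at -0.08 and 0.06. The 6 markers of neurons and enteroendocrine cells were low and mixed. Their summed level was 5.33, 9.24 and 2.67 CPM in Ctrl_Corpus and 3.71, 6.79 and 0.958 CPM in Erbb2_OE_Corpus. Tubb3 made up much of the control sums, at 3.52, 7.55 and 1.59 CPM, and was the one called, as it fell to 2.05, 2.32 and 0.4996 CPM (log2 fold change -1.33, adjusted p = 0.0346 in edgeR with the block). Of the other 3 tested, Chgb had a fitted log2 fold change of 1.54 (SE 0.86, adjusted p = 0.413), with 0.169 CPM in control replicate 2 and 2.89 CPM in Erbb2_OE_Corpus replicate 2, and Chga and Syp stood at -0.35 and -0.42. Elavl4 was at 0 in all libraries. The part of such cells in the Celf4 difference was not tested.

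Neither epithelial regulator passed the test in any fit run. Esrp1 was measured at 219, 192 and 189 CPM in Ctrl_Corpus and 213, 209.6 and 199 CPM in Erbb2_OE_Corpus, and Esrp2 at 193, 175 and 199 CPM against 206, 162 and 201 CPM. The groups overlapped for both. Their log2 fold changes were 0.05 and 0.00 (SE 0.08 each), with adjusted p-values of 0.794 and 0.997 in edgeR with the block, which does not show that they are equal.

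Of the members, 10 were not tested. Srsf12, Rbm11, Rbm8a2, Celf3 and Celf6 had at most 11 counts in a library, and Rbm31y, Rbm44, Rbm46, Rbmxl2 and Rbmy had 0 in every library, which allows up to 3 counts or between 0.125 and 0.170 CPM (counting error only). The transcripts of Rbm31y and Rbmy are near-identical to other genes over 100% of their length, so that their reads may not have been assigned, and the limit covers assigned reads only. Srsf12, named after its values were seen, had 2, 0 and 1 counts in Ctrl_Corpus and 11, 5 and 9 in Erbb2_OE_Corpus. The groups did not overlap, and its adjusted p with no filter was 0.979 without the block and 0.214 with it (edgeR).

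Level and difference were related weakly among the members. Spearman's rho between mean log2 CPM and the fitted log2 fold change was -0.294 over 100 members and -0.0255 over all genes. The genes share libraries and are not independent.

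No gene of 7 lists of other splicing and RNA decay factors, of which the exon junction list also holds Rbm8a, passed the test in either fit (edgeR). Fitted values with the block were below 0 for 6 of 7 other snRNP genes, 17 of 23 Prp proteins and helicases, 11 of 12 Lsm genes, 6 of 8 SR protein kinases, 28 of 34 other splicing regulators, 7 of 10 nonsense-mediated decay factors and 6 of 8 exon junction genes, against 51.6% of all genes. In the same order, 1, 5, 2, 0, 5, 1 and 3 genes were lower at an unadjusted p under 0.05, against 7.21% of all genes, and 0, 1, 0, 0, 1, 0 and 0 were higher, against 9.64%. The median log2 fold changes of the lists were -0.16, -0.11, -0.13, -0.05, -0.06, -0.04 and -0.14, again in that order. Prpf3, a protein of the U4/U6 snRNP, stood at -0.35 (adjusted p = 0.0715) and Lsm6 at -0.32 (adjusted p = 0.0929). Srrm2, a large scaffold of nuclear speckles, was measured at 905, 558 and 856 CPM in Ctrl_Corpus and 1055, 702.5 and 1052 CPM in Erbb2_OE_Corpus. It was higher in each pair, at a log2 fold change of 0.28 (adjusted p = 0.0632 in edgeR with the block). Snrnp35, Clk1 and Smg6 stood at -0.39, -0.14 and -0.24, with adjusted p-values of 0.210, 0.462 and 0.144.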

How the data were processed

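Polyadenylated RNA of 6 libraries was sequenced, 3 per group. The authors deposited raw counts of reads for each Ensembl gene, with 1 table per library, per the file headers. The submitters' processing notes name STAR, featureCounts and the GRCm39 assembly. Versions, annotation and strand setting are not stated, and reads of a gene cannot be told apart from those of an antisense partner. Symbols were matched to 25424 of 25528 IDs.

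The filter filterByExpr (minimum count 10) of edgeR 4.0.16, run in R 4.3.3, left 12593 genes. These were scaled by TMM and fitted with robust quasi-likelihood, two-sided. P-values were adjusted by Benjamini-Hochberg over all genes tested, with a threshold of 0.05. The planned design had the group alone, with the replicate number as a block among the alternatives. Deviations from group means of log2 CPM correlated at 0.298, 0.615 and 0.675 between libraries of the same number, and each library correlated best with its own number. The labels give only numbers, so that this check, made on the tested counts, is weak. Each SE is the absolute fitted log2 difference over the root of the F statistic. CPM use the TMM-scaled library size, and levels per length divide by merged exon length from a GRCm38 annotation, for want of one of GRCm39. No pair of libraries was identical (chi-square per degree of freedom 33.5 to 125.5 within groups).

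Near-identical sequence means at least 97% identity over 100 bases to another gene (blastn 2.17.0) over at least 30% of a transcript, as found for 29 of 110 members. The members, lists, markers and alternatives were chosen with earlier results of these data known. Named genes were those past the threshold in either fit and, in each family, the 4 with the smallest p with the block and the 2 with the highest level per length, and of each list the gene with the smallest p. The fits were tested on simulated data. The simulated counts had differences between replicate numbers built in, so they cannot show whether these numbers mark real pairs. DESeq2 1.42.0, limma-voom 3.58.1, other scaling, no filter and leaving out each library or pair were tried.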

Additional observations from a re-analysis of the deposited data

How the results depend on the processing

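Without the block, the number of genes called was 0 (419 at an unadjusted p under 0.05), and 34 with DESeq2. Leaving out 1 library gave between 0 and 1. With the replicate block it was 389 (edgeR), 466 (DESeq2), 417 (voom), 395 (DESeq2's size factors), 345 (no filter) and 405 (earlier quasi-likelihood form, chosen after seeing the data), and 213, 145 and 1089 without pairs 1, 2 and 3. The number of members called was 0 without the block under each alternative run, and with it 3, 4, 3, 2, 2 and 3 in the same order, then 1, 0 and 5 without pairs 1, 2 and 3. Without pair 3, Hnrnpr (adjusted p = 0.00464) and Snrpn (0.0459) were called too (edgeR). That fit called 1089 of 12499 genes and 5 of 100 members. With all pairs and the block, edgeR called 389 of 12593 genes and 3 of 100 members. In neither of these fits was the members' share above that of all genes.

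With 1 library left out, the members' median log2 fold change of -0.11 ranged from -0.17 to -0.058 and the Hnrnp median of -0.17 from -0.29 to -0.14, lowest for both without control replicate 2. Erbb2 passed the threshold at 1.23 with DESeq2, and with the block at 1.23, 1.24, 1.23, 1.24, 1.24 and 1.23 in the order above and 1.12, 1.32 and 1.28 without pairs 1, 2 and 3. Of 897 values of 39 other named genes under 23 alternatives, 13 in 8 genes, none of them called, changed sign. With 1 library left out, the log2 fold change ranged from -0.38 to 0.0029 for Srsf11, from -0.26 to 0.10 for Srsf5, from -0.35 to 0.030 for Hnrnpa1, from -0.11 to 0.0028 for Sf3b2, from -0.037 to 0.12 for Celf2, from -0.059 to 0.11 for Esrp2 and from -0.33 to 0.12 for Clk1. With the block, Esrp2 was at -0.046 without pair 1, and Celf2 at -0.051 and U2af2 at 0.0034 without pair 3. The cause of these changes was not tested.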
